A study of Mus musculus with 2 samples.

Results

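The collagen genes are described here, defined as every gene whose annotated symbol is Col, a number, the letter a and a number, such as Col1a1. This rule took 42 genes with 82 probe sets, of 18193 genes that the arrays name. The rule itself used no measured value, but the collagen genes were chosen with earlier results of these data known. No probe set that names several genes holds a collagen symbol, and the RefSeq table lists 44 such genes, of which Col28a1 and Col6a6 had no probe set naming them. The RNA was extracted from primary mouse cultures of RPE (retinal pigment epithelium), a pigmented monolayer between photoreceptors and choroid. Both cultures grew in DMEM with 20% FBS for 14 days, and both spent a night in serum-free medium before extraction. The first culture, untreated RPE, received no cytokine. The second, RPE with IFNg, was exposed to interferon gamma (IFNg), a T-cell and NK-cell cytokine, at 100 U/ml for 24 h. Strain, age and number of animals are not in the labels, and 95% of the cells were said to be cytokeratin positive. Each group is 1 culture on 1 array, so no difference below carries a p-value, and higher and lower describe these 2 arrays.

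Collagens are the main structural proteins of the extracellular matrix. They are built from alpha chains that wind into a triple helix, and different chains of a type combine in the same molecule. The RPE lays down a basement membrane on Bruch's membrane, which holds type IV collagen, while its deeper layers hold fibrillar types I, III and V. RPE cells kept in culture are known to take on mesenchymal features and to make fibrillar collagens. In fibroblasts, IFNg is known as an inhibitor of type I collagen transcription, and the class II transactivator CIITA with the RFX complex at the Col1a2 start site is a described route.

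The deposited values are linear signals per probe set, with medians of 20.1 and 20.8 on the untreated and IFNg arrays and a highest value of 14895.6. A gene took its brightest probe set, and any signal below the pooled median of 20.4 was raised to it (the floor). Log2 ratios are IFNg over untreated. For the 10441 genes with both signals above the floor, the median log2 ratio was -0.13, and 57.7% of them were lower with IFNg, so the background itself leans to the lower side. The only spread this design gives is that between probe sets of the same gene, whose log2 ratios had an SD of 0.44 over 4419 genes. It is technical and leaves out differences between cultures. Signals of different probe sets are not on a common scale, so only ratios are compared between genes.

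Of the 42 collagen genes, 25 were above the floor on both arrays, 5 on 1 array and 12 on neither. Of these 25, 23 were lower with IFNg by their brightest probe set (92.0%, beside 57.7% of all genes) and 2, Col8a1 and Col27a1, were higher. The count was 23 of 25 under each scaling of the arrays that was tried and 21 with probe sets averaged, where Col1a1 (0.02) and Col23a1 (0.11) were above 0. The differences were mostly small: 3 of the 25 were at least 2-fold lower (Col8a2, Col6a2 and Col23a1, whose probe sets disagree), where 4.26% of all genes were, and 0 were 2-fold higher, where 9.31% were. At 1.5-fold, 9 of the 25 were lower (36.0%, beside 18.7% of all genes), and 1 was higher, beside 18.6%. The median log2 ratio of the 25 was -0.40, and their values ran from -1.21 to 0.71. Among genes of mean signal over 1000, which lean lower as a whole (69.0% of 935, median -0.19), 11 of 12 collagen genes were lower, with a median of -0.28. In 2 bulk cultures, fewer cells of a type and less RNA per cell cannot be told apart.

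**Figure D1:**
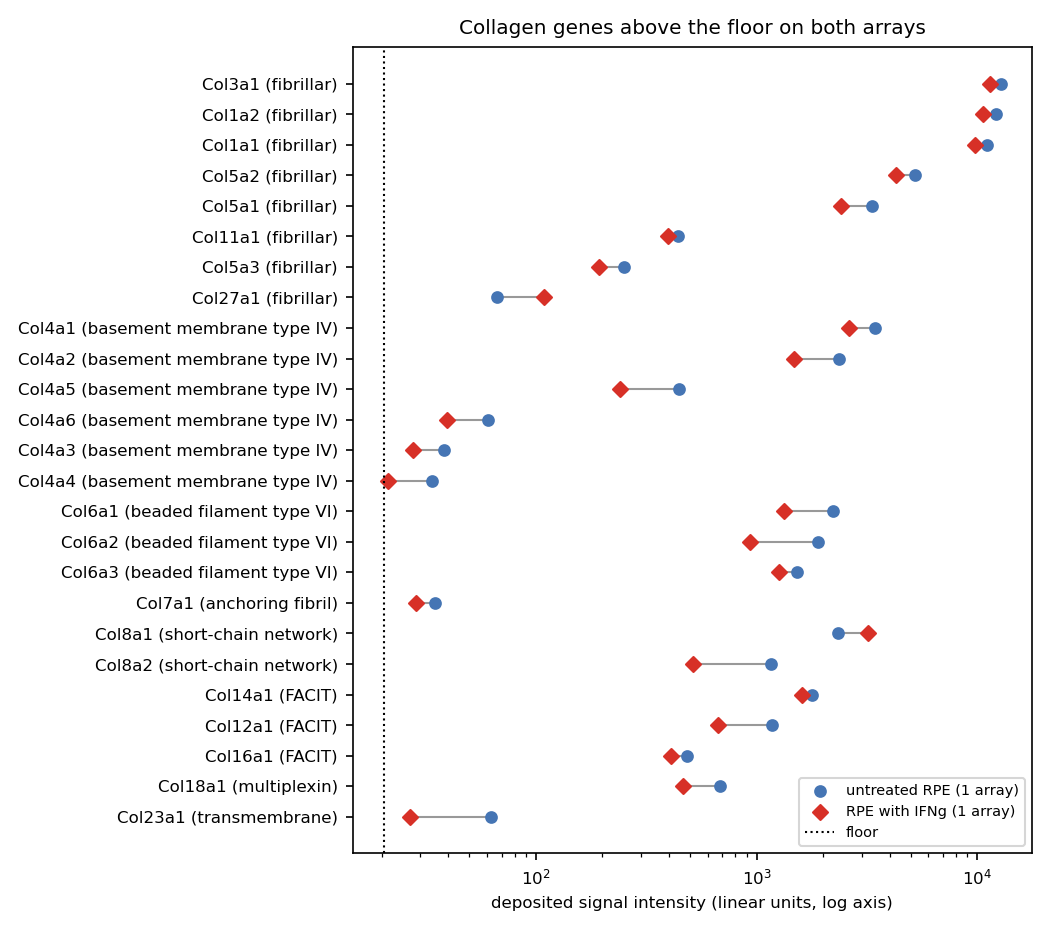
Deposited signal of each collagen gene above the floor on both arrays, in linear units on a log axis, with the untreated array as circles and the IFNg array as diamonds (1 array each, brightest probe set). The diamond lies to the left of the circle for 23 of 25 genes, and to the right for Col8a1 and Col27a1.

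Further probe sets of a gene give another reading of its ratio, but only 16 collagen genes had more than 1 above the floor on both arrays. Of 44 collagen probe sets above the floor on both arrays, 37 were lower with IFNg (84.1%, beside 55.5% of 17373 such probe sets of all genes), with a median log2 ratio of -0.38. These 44 include the brightest probe sets of the 25 genes counted above, so the share is not a separate reading. The SD between probe sets of a collagen gene was 0.42 over 16 genes, which is as large as the median ratio itself. By this spread of about 0.44, pooled over dim and bright probe sets, a single collagen gene within 1.5-fold cannot be told from 0. Nor is a gene past 1.5-fold thereby told from 0, as no culture was repeated.

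Promoter sequences, the 250 bases before the annotated start, are shown for Col1a2, a bright gene with a well-studied promoter, and for Col8a1 and Col8a2, partner chains with ratios of opposite sign. They come from RefSeq, build GRCm38.p6: Col1a2 at chr6:4505368-4505617 (plus strand), Col8a1 at chr16:57754738-57754987 (minus strand) and Col8a2 at chr4:126286544-126286793 (plus strand). Capitals mark the CCAAT box (CCAAT or ATTGG) and the GC box (GGGCGG or CCGCCC).
Col1a2: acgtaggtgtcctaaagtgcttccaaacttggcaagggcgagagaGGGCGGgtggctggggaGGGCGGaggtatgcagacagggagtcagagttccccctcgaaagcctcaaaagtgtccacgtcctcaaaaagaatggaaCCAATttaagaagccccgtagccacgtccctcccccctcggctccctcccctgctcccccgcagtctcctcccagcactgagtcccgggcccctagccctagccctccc
Col8a1: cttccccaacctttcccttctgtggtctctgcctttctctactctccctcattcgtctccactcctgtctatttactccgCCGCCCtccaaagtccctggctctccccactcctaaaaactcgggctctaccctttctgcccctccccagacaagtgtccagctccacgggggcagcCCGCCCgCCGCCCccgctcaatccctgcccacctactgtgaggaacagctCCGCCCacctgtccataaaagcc
Col8a2: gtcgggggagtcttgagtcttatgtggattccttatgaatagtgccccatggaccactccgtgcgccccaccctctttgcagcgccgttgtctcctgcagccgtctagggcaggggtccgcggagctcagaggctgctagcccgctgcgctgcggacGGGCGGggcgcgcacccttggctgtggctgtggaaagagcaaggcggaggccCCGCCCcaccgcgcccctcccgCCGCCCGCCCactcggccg
Col1a2 held a CCAAT box, a binding sequence of the factor NF-Y, from base -109 to -105, and GC boxes from -205 and from -188, where Sp1-family factors bind. Both type VIII promoters were rich in GC boxes and held no CCAAT box.

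Promoter windows were found for 35 of the 44 RefSeq collagen genes, in 38 windows. The GC box was in 57.89% of them, beside 32.75% of all 32841 windows of this length. The CCAAT box was in 34.21%, beside 33.86% of all windows, and the TATA box (TATAAA, both strands) in 13.16%, beside 12.37%. The core of the interferon-stimulated response element (GAAANNGAA, both strands) was in 3 windows (7.895%, beside 7.131%), those of Col27a1, Col4a6 and Col6a4. Col27a1 was higher with IFNg and Col4a6 lower, so this match went with both directions. A match describes letters in the window and not a bound site. Col1a1 had no promoter window, so it was not scanned.

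Fibrillar collagens form the load-bearing fibres, and their 3 brightest genes differed little between the arrays. Col1a1, the major chain of type I collagen, had signals of 11026.1 untreated and 9774.7 with IFNg (log2 ratio -0.17). Its partner chain Col1a2 had 12169.7 and 10653.1 (-0.19), so both type I chains had the same ratio to within 0.02. Col3a1, which forms the homotrimeric type III fibres, had 12807.6 and 11389.0 (-0.17). These 3 ratios lie close to the median of all genes and within 1 SD of 0. Dimmer probe sets of the same genes disagreed in both directions. A second Col1a2 probe set, at 8112.7 and 5734.0, had a ratio of -0.50, and the third, at 16.2 and 30.6, was at least 1.5-fold higher; their mean with the brightest was -0.04. A second of Col3a1, at 2144.3 and 1646.3, had -0.38. A second of Col1a1, at 552.6 and 637.9, went the other way, at 0.21, and the mean of the 2 Col1a1 probe sets was 0.02. The brightest probe sets lie near the top of the deposited range, and whether the signal is compressed there was not tested.

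Type V collagen co-assembles with type I and limits fibre diameter, and all 3 of its chains were lower with IFNg. Col5a1 had signals of 3338.7 and 2412.9 (-0.47), with further probe sets at -0.37 and -0.12. Col5a2 had 5237.5 and 4279.6 (-0.29), with a further one at -0.22, and Col5a3 had 249.8 and 192.3 (-0.38). Every Col5a1 and Col5a2 probe set thus pointed down, by less than 1.5-fold. Col11a1, a minor fibrillar chain known from cartilage, had 438.8 and 397.3 (-0.14) and a second probe set at -0.18.

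Col27a1, a fibrillar chain known from cartilage, was the fibrillar gene that stood apart. Its signals were 66.5 untreated and 108.5 with IFNg, a 1.63-fold difference upward (log2 ratio 0.71). The second Col27a1 probe set, at 38.7 and 66.3, gave 0.78, so both readings agree, although both are dim. Col2a1, the cartilage fibril chain, was under the floor untreated (6.3) and at 33.9 with IFNg, a bound of at least 1.66-fold from 1 dim probe set. Col11a2 (15.3 and 6.8) and Col24a1 (20.1 and 18.0) were under the floor on both arrays.

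Type IV collagen is the network former of basement membranes, and all 6 of its genes were above the floor on both arrays and lower with IFNg. Their log2 ratios ran from -0.40 to -0.89, with a median of -0.64, and 4 of 6 were at least 1.5-fold lower (66.7%, beside 18.7% of all genes). That share depends on processing. With a pseudocount of 16, Col4a4 (-0.42) and Col4a6 (-0.47) were within 1.5-fold. So were Col4a6 (-0.31) with probe sets averaged and Col4a2 (-0.52) with the loess trend removed. With the 75th percentile floor, Col4a3, Col4a4 and Col4a6 had no value. The signs were kept wherever a value existed. The widespread chains Col4a1 (3451.8 and 2624.8, -0.40) and Col4a2 (2357.4 and 1483.1, -0.67) were bright, and a second Col4a1 probe set gave -0.71. Col4a5, whose chain enters the specialised networks of kidney, eye and ear, had 444.2 and 239.5 (-0.89), with a second probe set at 171.1 and 123.4 (-0.47). Its partner genes were dim: Col4a3 had 38.3 and 27.8 (-0.46), and Col4a6 had 60.5 and 39.4 (-0.62). Col4a4 had 33.9 and 21.4 (-0.66), and further Col4a4 probe sets were at -0.61 and, under the floor with IFNg, at least -0.54 downward. No measured type IV probe set was higher with IFNg.

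Type IV genes lie in head-to-head pairs, and the members of a pair had ratios within the probe-set spread of each other. In GRCm38.p6 the annotated starts of Col4a1 and Col4a2 lie 21 bases apart on opposite strands of chromosome 8, and their ratios differed by 0.27. Those of Col4a6 and Col4a5 lie 1343 bases apart on chromosome X, with a difference of 0.27 too. Col4a3 and Col4a4, neighbours on chromosome 1, differed by 0.20. Col6a1 and Col6a2, neighbours on chromosome 10 in the same orientation, differed by 0.29, and Col3a1 and Col5a2, neighbours on chromosome 1, by 0.12. Differences of this size are below the SD of 0.44, and no test of neighbours against other pairs was made.

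Type VI collagen forms beaded filaments that anchor cells to the surrounding matrix, and its 3 measured chains were all lower with IFNg. Col6a1 had signals of 2224.0 and 1332.1 (1.67-fold lower, -0.74). Col6a2 had 1898.9 and 931.1 (2.04-fold lower, -1.03), and its second probe set, at 1069.9 and 582.3, gave -0.88. The Col6a2 identifiers end in _a_at and _x_at, and both are dropped in the alternative without shared-sequence probe sets. Col6a2 just passes 2-fold: its ratio was -0.97 after quantile normalization, -0.87 with the loess trend removed and -0.95 with probe sets averaged. Col6a3, the remaining chain of the classic molecule, had 1518.7 and 1267.4 (-0.26), so it differed from Col6a2 by 0.77 log2 units. Col6a4 (13.3 and 14.8) and Col6a5 (8.9 and 0.9) were under the floor on both arrays.

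Type VIII collagen is a short-chain network collagen known from Descemet's membrane and from vessel walls, and its 2 chains went in opposite directions. Col8a2 had signals of 1165.7 untreated and 514.5 with IFNg (2.27-fold lower, log2 ratio -1.18), from its 1 probe set. Col8a1 had 2332.3 and 3195.8 (1.37-fold higher, 0.45). Further Col8a1 probe sets, at 2292.9 and 2415.6 and at 300.9 and 336.0, gave 0.07 and 0.16, so all 3 were above 0 and none was past 1.5-fold. The ratios of the 2 chains differed by 1.63 log2 units, the widest gap among the 12 partner and neighbour pairs compared. Col8a2 stayed 2-fold lower in each processing alternative tried at that threshold, at -1.03 to -1.26. Col10a1, the other short-chain gene, was under the floor (9.5 and 11.4).

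**Figure D2:**
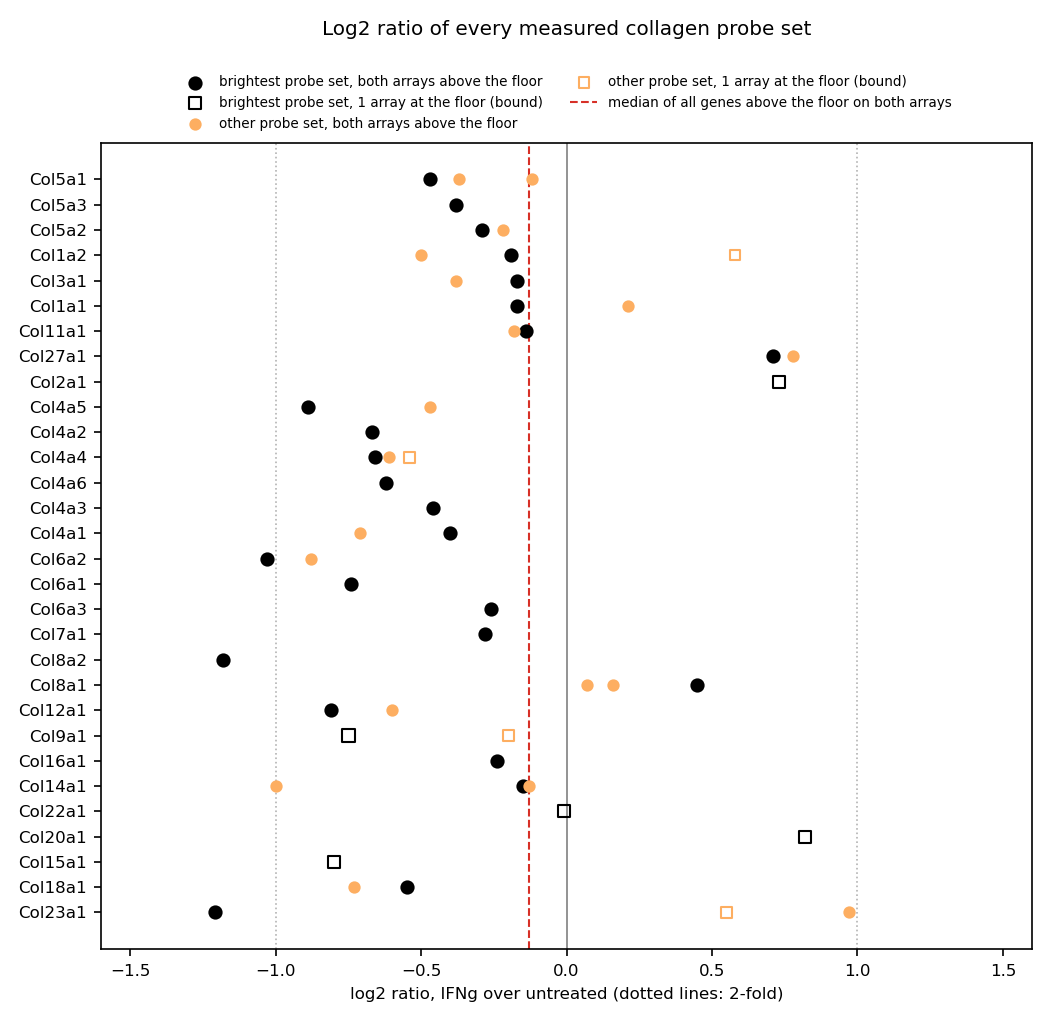
Log2 ratio (IFNg over untreated) of each collagen probe set above the floor on 1 or both arrays, grouped by collagen class, with the brightest probe set of a gene in black, others in orange, and bounds as open squares. The 6 type IV genes lie wholly left of 0, Col8a1 and Col8a2 lie 1.63 apart, and the probe sets of Col23a1 stand on both sides.

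Fibril-associated collagens (FACIT) sit on the surface of fibrils and link them to other matrix. Col12a1 had 1173.8 and 670.7 (1.75-fold lower, -0.81), and its second bright probe set, at 768.9 and 508.8, gave -0.60. Col14a1 had 1780.4 and 1604.6 (-0.15) and a second probe set at -0.13, while another, at 285.5 and 143.2, gave -1.0. Col16a1 had 483.6 and 409.7 (-0.24). Col9a1 was above the floor untreated only, at 34.2 against 16.9, at least 1.68-fold lower, and so was Col22a1, barely (20.5 and 14.1). Col20a1 was at 6.3 and 36.1 in 1 of its 4 probe sets, a bound of at least 1.77-fold higher, and the other Col20a1 probe sets were under the floor. Col9a2 (2.4 and 17.8), Col9a3 (5.3 and 9.8) and Col19a1 (19.2 and 12.9) were under the floor on both arrays. The dim FACIT genes thus gave bounds in both directions, and the bright ones were lower or near the median of all genes.

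The multiplexins carry heparan or chondroitin sulfate and can release anti-angiogenic fragments. Col18a1, the source of endostatin and a component of the RPE basement membrane, had 682.0 and 465.2 (1.47-fold lower, -0.55), and its second probe set, at 518.9 and 312.0, gave -0.73. Col15a1 was at 35.6 untreated and 2.1 with IFNg, at least 1.75-fold lower against the floor. Col7a1, the anchoring fibril chain of skin, was dim on both arrays (34.9 and 28.7, -0.28).

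Among the transmembrane collagens, Col23a1 passed 2-fold lower by its brightest probe set but not as a gene. That probe set had 62.4 and 27.0 (2.31-fold lower, -1.21). A second, at 21.4 and 42.0, gave 0.97 in the other direction, and the last, at 1.5 and 29.9, at least 0.55 higher. With probe sets averaged, the Col23a1 ratio turned to 0.11. Its place among the 23 lower genes and the 3 past 2-fold rests on the brightest probe set alone. Col13a1 (15.8 and 4.6), Col17a1 (1.1 and 0.8) and Col25a1 (19.3 and 9.6) were under the floor on both arrays, as was Col26a1 (6.4 and 4.7).

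**Figure D3:**
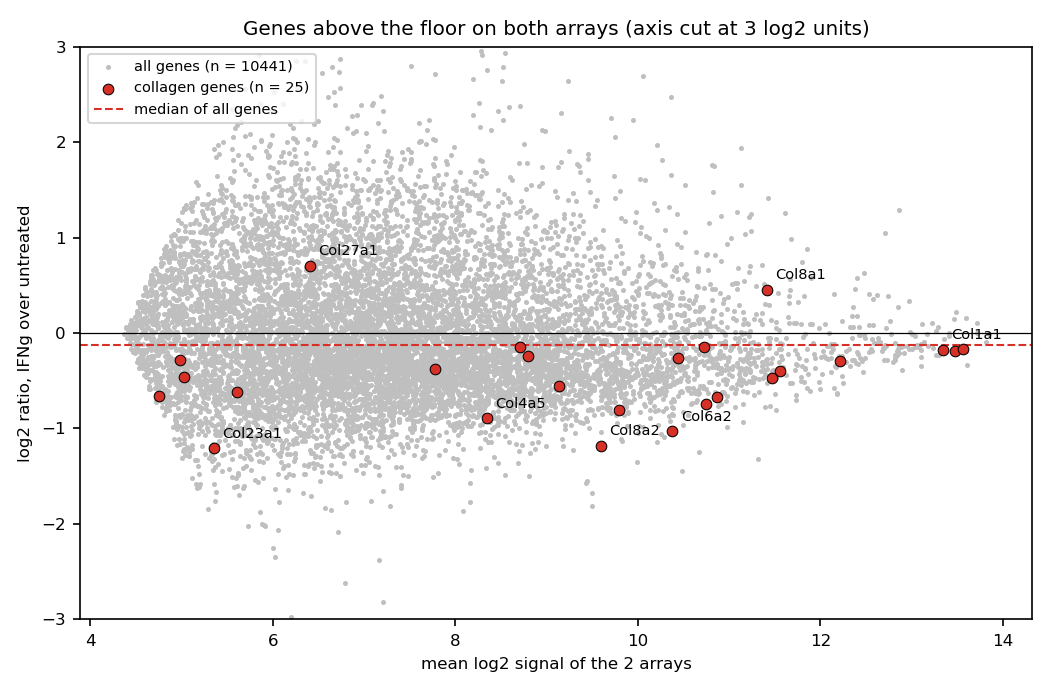
Log2 ratio against mean log2 signal for all 10441 genes above the floor on both arrays (grey) and the 25 collagen genes (red); 45 genes lie beyond the axis limit of 3. Most collagen genes lie below the dashed median of -0.13, within the cloud of all genes, and Col8a2 and Col6a2 lie at its lower edge among bright genes.

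Genes that process collagen inside the cell had a median log2 ratio of -0.30 over 27 genes above the floor, beside -0.13 for all genes, with 2 at least 2-fold higher (beside 9.31% of all genes) and 0 at least 2-fold lower (beside 4.26%). The higher count was 1 with a common 75th percentile or a pseudocount of 16, and 0 with probe sets averaged. It was also 1 without shared-sequence probe sets, because that alternative leaves Hspa5 no probe set. The 2 were Hspa5, the endoplasmic reticulum chaperone BiP (2023.4 and 4855.0, 1.26), and Plod2, the telopeptide lysyl hydroxylase (766.6 and 1547.6, 1.01). Further probe sets gave 0.62 and -0.06 for Hspa5 and 0.47 for Plod2. The 3 brightest members were the cyclophilin Ppib (6967.1 and 6117.4, -0.19), the collagen chaperone Serpinh1 (5515.9 and 4477.9, -0.30) and P4hb, a subunit of prolyl 4-hydroxylase (5228.2 and 4418.1, -0.24). At 1.5-fold, 7 of the 27 were lower (25.9%, beside 18.7% of all genes). In the 3-hydroxylation complex, P3h1 was at -0.79 and Crtap at -0.60, while Ppib, its remaining subunit, was at -0.19. Of the related genes, P3h3 (-0.68) and P3h4 (-0.61) were at least 1.5-fold lower, and P3h2 (56.4 and 51.6) was at -0.13. The COPII coat gene Sec24d, needed to export procollagen, was at -0.73, and the export receptor Mia3 at 0.69.

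Among 19 genes of propeptide removal, assembly and cross-linking above the floor on both arrays, the median was -0.16, with 2 at least 2-fold lower (beside 4.26% of all genes) and 1 higher (beside 9.31%). The lower count was 1 with the loess trend removed. The higher count was 0 with a common 75th percentile and 2 with the lower floor at the 25th percentile. It was also 0 without shared-sequence probe sets, because that alternative leaves Tgm2 no probe set. Pcolce2, an enhancer of procollagen C-proteinase, had 1186.8 and 405.8 (2.93-fold lower, -1.55), while its relative Pcolce had 7798.9 and 6957.8 (-0.16). Pxdn, the peroxidase that cross-links type IV collagen, had 544.4 and 256.8 (2.12-fold lower, -1.08), the same side as the 6 type IV genes. Tgm2, a transglutaminase, had 1607.1 and 3307.3 (1.04), with 4 further probe sets from 0.96 to 1.59. The 3 brightest members were Sparc (13435.2 and 13398.9, 0.00), the small proteoglycan gene Bgn (9541.8 and 8029.0, -0.25) and Fn1, for fibronectin (8508.3 and 7598.6, -0.16). A dim second Fn1 probe set gave 1.39. The lysyl oxidase gene Lox was at 0.17, with further probe sets at 0.39 and -0.12.

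Collagen receptor and turnover genes had a median of 0.00 over 15 genes above the floor on both arrays, and 2 were at least 2-fold higher (beside 9.31% of all genes). That count was 1 with a common 75th percentile, quantile normalization, the 75th percentile floor, a pseudocount of 16 or probe sets averaged. Ddr2, a receptor kinase for fibrillar collagen, had 244.6 and 547.8 (1.16), and its second probe set gave 0.98. Itga1, the integrin chain for type IV collagen, had 26 and 54.9 (1.08) and was dim. The 3 brightest were the metalloproteinase inhibitors Timp2 (8042.9 and 7319.3, -0.14), Timp1 (5732.4 and 5637.9, -0.02) and Timp3 (3718.0 and 3963.7, 0.09). The gelatinase Mmp2 was at -0.61 and the collagenase Mmp13 at 0.40.

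Regulators of collagen transcription had a median of -0.21 over 22 genes above the floor on both arrays, of which 2 were at least 2-fold higher (beside 9.31% of all genes) and 1 lower (beside 4.26%). With Ciita, a bound, 3 were higher, which became 1 with the 75th percentile floor or probe sets averaged, and the lower count became 0 with either or with a pseudocount of 16. Nfyb, a subunit of the CCAAT-binding factor NF-Y, had 83.4 and 242.9 (2.91-fold higher, 1.54), and its second probe set gave 1.53. The other NF-Y subunits Nfya (0.07) and Nfyc (-0.40) were within 1.5-fold by their brightest probe sets, but further Nfya probe sets, under the floor with IFNg, were lower, at 42.4 and 7.5 and at 27.0 and 7.2. Tgfbr1, a TGF-beta receptor, had 77.0 and 168.2 (1.13), and Scx, a tendon factor that drives Col1a1, had 53.0 and 21.7 (-1.29). Ciita was under the floor untreated (2.5) and at 48.2 with IFNg, at least 2.36-fold higher, while its RFX partners Rfx5 (0.24), Rfxap (-0.40) and Rfxank (-0.47) were within 1.5-fold by their brightest probe sets. Further Rfxank probe sets were lower by more, at 68.2 and 36.2 (-0.91) and at 37.7 and 15.9 (a bound, -0.89). Creb3l1, which activates Col1a1 in osteoblasts, had 783.6 and 420.6 (1.86-fold lower, -0.90). The 3 brightest members were Ccn2 (9919.6 and 7797.1, -0.35), Ybx1 (2241.4 and 3193.0, 0.51) and Tgfbr2 (1883.4 and 1623.3, -0.21), whose second probe set gave -0.88.

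**Figure D4:**
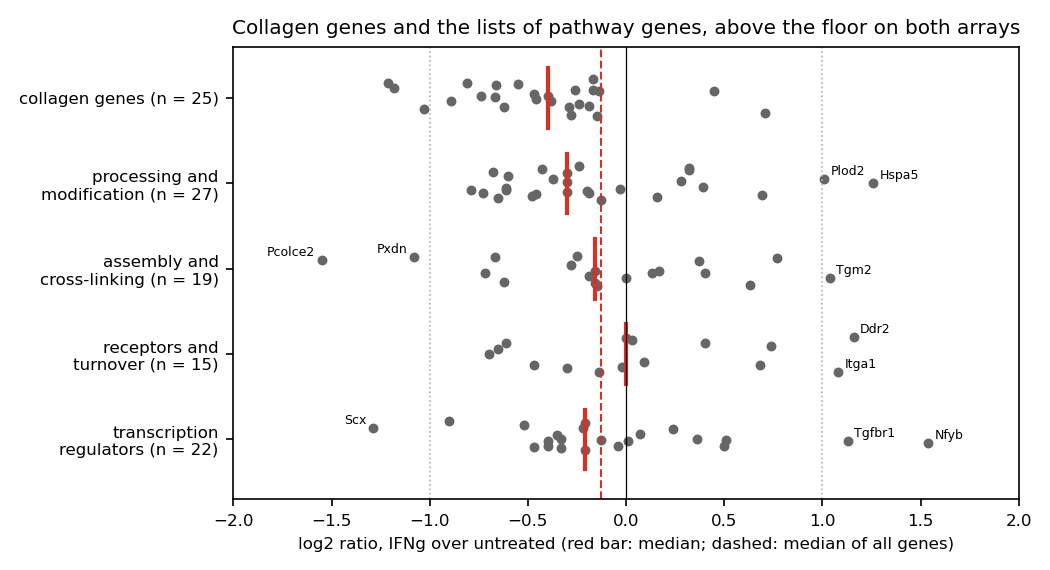
Log2 ratio (IFNg over untreated) of collagen genes and of the 4 pathway lists, each point a gene above the floor on both arrays, with list medians as red bars and the median of all genes dashed. The collagen median of -0.40 and the processing median of -0.30 lie left of the dashed line at -0.13, and the receptor median lies at 0.00. No trend on mean signal was removed in this figure.

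Markers of the cells in culture were read beside these values. The sums below add probe sets that are not on a common scale, so they do not measure amounts of a cell type. The brightest markers weigh most in them. Of 12 RPE and visual cycle markers, 9 were above the floor, and Rpe65, Best1 and Dct were under it on both arrays. The 12 summed to 2200 untreated and 1430 with IFNg, and the 9 had a median log2 ratio of -0.70. At least 2-fold lower were 4 (beside 4.26% of all genes): Ttr (-1.6), Tyrp1 (-1.29), Rdh5 (-1.21) and Rlbp1 (-1.06). All but Rdh5 were dim. None was 2-fold higher, and Mitf was at 0.59. All 10 fibroblast and mesenchymal markers were above the floor, with sums of 24200 and 28200 and a median log2 ratio of 0.15. Of these, Dcn (0.63), Lum (0.77), Postn (0.51) and Fap (0.74) were higher with IFNg, while Thy1 (-0.64) and Pdgfrb (-0.58) were lower. The others differed little: Vim (0.16), Pdgfra (0.14), Twist1 (0.04) and S100a4 (-0.16). Smooth muscle and myofibroblast markers summed to 20100 and 16200, with Cnn1 at -1.82 and Myh11 under the floor. Endothelial markers summed to 135 and 86.5, and macrophage and leukocyte markers to 1190 and 798. Epithelial markers summed to 2340 and 3130, with 4 of 6 above the floor, and the sum was larger through Krt18 (1390.4 and 2445.9). The epithelial median was -0.32, with Cdh3 at -1.37, Epcam at -0.66 and Krt8 at 0.02. Neural retina and glia markers summed to 1090 and 756, mostly Glul, while Tubb3, at 15.0 and 155.7, was at least 7.63-fold higher. The sums of Schwann and melanocyte lineage markers were 151 and 113. The part of these shifts in the collagen values was not tested.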

How the data were processed

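Per the labels' protocols, biotin-labelled cRNA from total RNA of 2 mouse RPE cultures was hybridised to 1 array each, and groups follow the sample titles. The authors deposited linear signal intensity for 45101 probe sets. How signals were summarised, background-corrected and called present is not given in the sources used here. The 64 control probe sets were left out, and both arrays were brought to equal means after trimming 2% at each end (factors 1.00008 and 0.999924). A floor at the pooled median, 20.4, stood in for detection calls, and where only 1 array exceeded it the ratio is a bound. Gene names come from the platform annotation: 34945 probe sets have 1 gene, 932 several and 9160 none, and only the first were used. A gene took the probe set of highest mean log2 signal. Of 158 list symbols, 147 were matched, 1 of them by a synonym. The members and lists were chosen with earlier results of these data known. All members were named, and of each pathway list the genes past 2-fold and the 3 brightest. Further list genes and the 3 printed promoters were chosen after their values were seen. No test was possible with 1 array per group. Counts and medians were checked on simulated data. Python 3.11.15, numpy 2.4.6, pandas 2.3.3, statsmodels 0.14.6 and matplotlib 3.10.9 were used. The alternatives, in the closing section, covered scaling, floor, probe-set rule and threshold. The alternative without shared-sequence probe sets dropped identifiers by their ending alone (_s_at, _x_at or _a_at).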

Additional observations from a re-analysis of the deposited data

How the results depend on the processing

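The collagen median log2 ratio (-0.39 with bounds included) kept its sign in every scaling, floor and probe-set alternative tried, from -0.46 with a common 75th percentile to -0.28 with probe sets averaged. Relative to the median of all genes under the same setting it was -0.33 to -0.19. With probe sets averaged, 21 of 25 collagen genes above the floor on both arrays were lower. The counts past 2-fold, 0 higher and 3 lower, depended on the floor: 4 and 8 with the floor at the pooled 25th percentile, which admits very dim genes, and 2 higher with a pseudocount of 16. With probe sets averaged 1 was lower, Col8a2. A 1.5-fold threshold gave 3 higher and 11 lower, bounds included, and a 3-fold threshold 0 lower. Col23a1 reversed to 0.11 with probe sets averaged. Over 256 single-gene values under the alternatives, 247 moved by less than 0.44, the SD between probe sets, 8 moved by more and 1 reversed, counting as reversed only 2-fold calls that changed sign. With probe sets averaged Col1a1, within 1.5-fold throughout, also changed sign, to 0.02. Many of the 256 values could hardly move, so their tally is no measure of robustness. Leaving out the rescaling changes almost nothing, as its factors are near 1, and another floor leaves bright genes as they were. The margin of 0.44 is also wider than the collagen median itself. Of 72 counts past 2-fold in the pathway lists, 19 moved by over 1.5 times. Signals near the floor limit the dim members, and 1 array per group limits the precision of all. No paired analysis was possible because each group has 1 array.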
